A study of Mus musculus with 6 samples.

Results

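Emp1, Emp2, Emp3 and Pmp22 encode the small tetraspan membrane proteins of the PMP22 family, and all array probes carrying one of these 4 gene symbols were taken, which gave 6 probes among 45281 (4 of 19057 genes with a named probe). Emp1 and Emp2 had 1 probe each, and Emp3 and Pmp22 had 2 each. The family was chosen by the values of Emp1, which stood among the probes higher in the conditional knockout with a log2 difference of 3.06 and an adjusted p of 0.0499 in limma. The contrast of the family's values is therefore given as a description, and nothing is tested with it.

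The cells were Sertoli cells of mice 6 weeks old on a C57B6J/129SvEv background, sorted by fluorescence through a Sox9-GFP label. In the Rb cKO samples (3 arrays) the genotype was Rb1 flox/- with Amh-Cre, in which Cre recombinase is driven by the promoter of the Sertoli cell hormone gene Amh. The Control samples (3 arrays) were Rb1 flox/- without Cre, so these cells kept a single working copy of the gene. Both groups thus share a null and a floxed Rb1 allele, and because Cre is present in Rb cKO alone, its own effects and those of Rb1 loss cannot be told apart. Separate animals are not mentioned for the replicates, so p-values measure only how these samples vary, and that variation may be technical.

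Proteins of this family cross the membrane as a tetraspan bundle and share their fold with the claudins of tight junctions. PMP22 is best known as a protein of compact myelin in Schwann cells, where changed gene dosage in humans causes inherited neuropathy, and it was also described as a growth arrest specific gene, Gas3. The epithelial membrane proteins EMP1, EMP2 and EMP3 occur in many epithelia and other tissues, and EMP2 has been described as a regulator of integrin and caveolin levels at the cell surface.

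The arrays differed beyond their groups. Rb cKO replicate 1 and Control replicate 3 lay at the opposite ends of the first principal component (-113.9 and 110.2), and the other 4 arrays lay between -34.3 and 31.4. Detected probes made up 43.0% to 50% of each Rb cKO array and 46.0% to 53.5% of each Control array. Rb1 was lower in Rb cKO on both of its probes without passing the threshold, with differences of -1.22 ± 0.32 and -0.98 ± 0.34 log2 units (SE, n = 3 per group; adjusted p 0.399 and 0.668 in limma), and neither probe could be placed inside or outside the floxed exons. In the fit across all 21805 tested probes, 31 were higher in Rb cKO and 0 lower at an adjusted p under 0.05, while 1010 and 383 reached an unadjusted p under 0.05 in these directions. When the replicate number was entered as a block, limma called 0 (1975 higher, 1282 lower by unadjusted p under 0.05).

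Emp1 was much brighter in Rb cKO cells than in Control cells. Its probe ILMN_2642913 read 557.5, 277.4 and 418.5 intensity units on Rb cKO replicates 1 to 3, against 80.9, 59.9 and 77.6 on the Control arrays. After background correction and quantile normalisation these became 9.10, 7.82 and 8.55 on the log2 scale in Rb cKO, against 5.81, 5.20 and 5.28 in Control. Every Rb cKO array lay above every Control array, with 2.02 log2 units between the lowest Rb cKO array and the highest Control array. The group means were 8.49 ± 0.64 in Rb cKO and 5.43 ± 0.33 in Control (SD, n = 3 each), a difference of 3.06 ± 0.38 (SE), or 8.35-fold. Between arrays of the same replicate number the difference was 3.29, 2.62 and 3.27. In bulk cells like these, more cells of a kind and more RNA per cell cannot be told apart.

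The Control signal of Emp1 lay close to the detection limit, although the probe was detected on all 6 arrays. Its detection score, which must exceed 0.95, was 0.963 on Control replicate 2, and the size of the difference moved with the background correction. The difference was 2.14 with a normexp correction at offset 50, 2.42 with none and 2.46 in the deposited log2 values. Emp1 ranked 29 among all tested probes by log2 difference, and its adjusted p lay at the edge of the threshold. It was called in 3 of 15 alternative analyses (arrays scaled to a common median, detection required on all 6 arrays, 1 probe per gene; adjusted p from 0.0190 to 0.313 over all 15 in limma), and its adjusted p was 0.0835 with the replicate block. It was not called without any 1 of the 6 arrays (adjusted p between 0.0826 and 0.286), while the difference stayed between 2.76 and 3.40. Without both arrays that stood apart it was 2.68 ± 0.38.

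RefSeq lists 2 transcript starts for Emp1 on build GRCm38.p6, and the windows from 250 bases before to 50 after each are shown because Emp1 is the member with the largest difference. The first lies at chr6:135362681-135362980 and the second at chr6:135367243-135367542, both on the plus strand. Each is written 5′ to 3′ with capitals marking matches, on either strand, to any of 5 searched motifs: E2F (TTTCGCGC or TTTGGCGC), AP-1 (TGANTCA), Sp1 (GGGCGG), the TATA box (TATAAA) and the CCAAT box (CCAAT).
Emp1 first start: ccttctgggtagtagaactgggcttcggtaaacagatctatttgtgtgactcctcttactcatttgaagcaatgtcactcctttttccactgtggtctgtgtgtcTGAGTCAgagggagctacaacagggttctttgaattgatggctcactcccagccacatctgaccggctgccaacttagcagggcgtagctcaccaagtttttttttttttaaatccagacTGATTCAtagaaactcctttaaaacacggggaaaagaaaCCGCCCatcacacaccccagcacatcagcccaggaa
Emp1 second start: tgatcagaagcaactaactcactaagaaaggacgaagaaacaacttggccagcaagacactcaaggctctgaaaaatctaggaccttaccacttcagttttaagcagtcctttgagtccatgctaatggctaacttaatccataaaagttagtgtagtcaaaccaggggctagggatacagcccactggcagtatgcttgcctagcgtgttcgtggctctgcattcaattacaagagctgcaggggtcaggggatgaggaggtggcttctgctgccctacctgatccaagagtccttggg
The first window held 2 AP-1 matches, TGAGTCA at -145 and TGATTCA at -25 from the start, and an Sp1 match at 14. At least 1 AP-1 match was present in 7.81% of 32851 RefSeq windows of this length, and at least 2 in 0.46%. The second window held none of the motifs. Neither window had the E2F letters, which occurred in 0.813% of all windows. A match describes letters and is not a binding site.

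**Figure D1:**
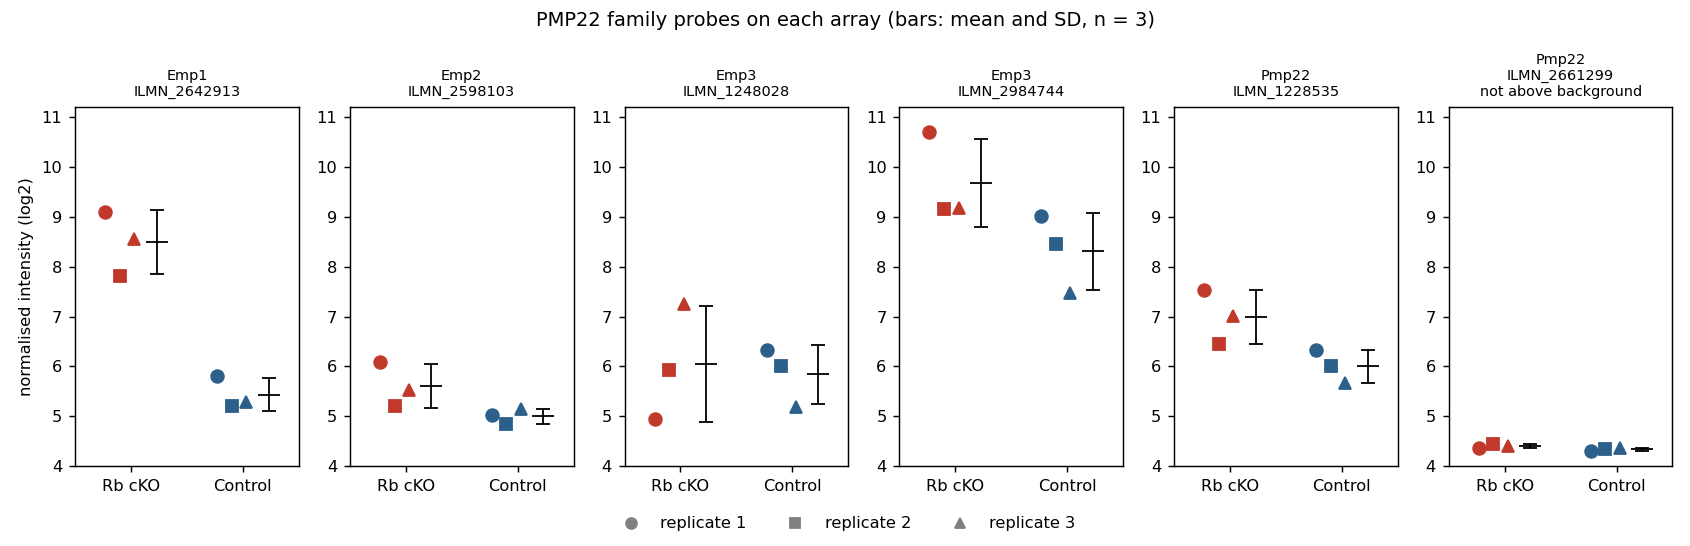
Normalised log2 intensity (vertical axis) of each of the 6 probes, one panel per probe, with Rb cKO arrays at left in red and Control arrays at right in blue; symbols give the replicate number and bars the mean and SD of 3 arrays. For Emp1 the lowest Rb cKO array (7.82) sits well above the highest Control array (5.81), whereas for the other detected probes the groups lie close together or overlap. Levels of different probes are not comparable.

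Emp2, whose protein has been linked to integrin traffic and caveolae, was near the detection limit throughout. Probe ILMN_2598103 read 87.6, 69.9 and 75.6 intensity units in Rb cKO, against 60.7, 52.5 and 72.1 in Control. It was detected on all 3 Rb cKO arrays and on 1 of the 3 Control arrays, so most of its Control values are not measured above background. The normalised log2 values were 6.09, 5.21 and 5.52 in Rb cKO, against 5.03, 4.84 and 5.14 in Control. The groups were separated by only 0.07 log2 units, and in the deposited intensities the lowest Rb cKO array lay under the highest Control array. The difference was 0.60 ± 0.31 (SE), and it was largest between the arrays of replicate 1 (1.06, against 0.37 and 0.38 for the other pairs). It was 0.36 without Rb cKO replicate 1, 0.29 with normexp at offset 50, 0.37 without background correction and 0.33 in the deposited log2 values.

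The single RefSeq start of Emp2, at chr16:10313919-10314218 on the minus strand, is shown because its base composition differs from that of Emp1.
Emp2: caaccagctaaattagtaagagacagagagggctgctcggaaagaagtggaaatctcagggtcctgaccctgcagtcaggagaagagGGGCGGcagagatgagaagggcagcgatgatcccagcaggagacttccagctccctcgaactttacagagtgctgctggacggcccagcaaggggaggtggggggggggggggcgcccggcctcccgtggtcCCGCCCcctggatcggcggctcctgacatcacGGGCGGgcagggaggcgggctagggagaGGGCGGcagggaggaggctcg
This window held 4 Sp1 matches, a motif found in 35.7% of all windows, and no AP-1, E2F, TATA or CCAAT match. Its GC content was 65.7% with 16 CpG pairs, whereas the first Emp1 window had 46.7% and 5, and the median of all windows was 52.7% and 7.

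Emp3 gave a different answer on each of its probes. The brighter one, ILMN_2984744, read 1815.0, 668.0 and 610.2 intensity units in Rb cKO, against 547.1, 328.0 and 248.7 in Control. Its normalised log2 values were 10.70, 9.16 and 9.17 in Rb cKO, against 9.01, 8.45 and 7.48 in Control. Rb cKO replicate 1 stood high and Control replicate 3 low, which are the same arrays that stood apart over all probes. The means were 9.67 ± 0.89 in Rb cKO and 8.31 ± 0.78 in Control (SD, n = 3 each), a difference of 1.36 ± 0.55 (SE). It was 0.85 ± 0.47 without Rb cKO replicate 1 and 0.43 ± 0.32 without both of those arrays. The groups were 0.15 log2 units apart after normalisation and overlapped in the deposited log2 values, where Rb cKO replicate 3 was at -0.01 and Control replicate 1 at 0.01.

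The dimmer Emp3 probe, ILMN_1248028, did not follow the bright one. Its normalised log2 values were 4.95, 5.92 and 7.26 in Rb cKO, against 6.33, 6.01 and 5.18 in Control, so that Rb cKO arrays held both the highest and the lowest value. On Rb cKO replicate 1, where the bright probe was at its highest, this probe was not above background. The difference was 0.20 ± 0.60 (SE). It was -0.41 without Rb cKO replicate 3 and -0.13 without Control replicate 3. Both probes are assigned to the same transcript accession, and no value here says which of them reports Emp3 better.

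RefSeq gives 2 starts for Emp3, of which the one at chr7:45921377-45921676 on the minus strand is shown because it holds the only TATA match among the family's windows.
Emp3: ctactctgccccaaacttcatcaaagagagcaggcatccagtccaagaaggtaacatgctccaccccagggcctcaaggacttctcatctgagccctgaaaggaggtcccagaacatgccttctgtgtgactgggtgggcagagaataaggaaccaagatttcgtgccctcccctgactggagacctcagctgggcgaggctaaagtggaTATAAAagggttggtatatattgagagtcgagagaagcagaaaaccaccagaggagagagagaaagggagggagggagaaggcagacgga
The TATAAA letters lay at -40 from the start and occur in 13.6% of all windows. No AP-1, E2F, Sp1 or CCAAT match was present in either Emp3 window.

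Pmp22, the myelin protein gene, was measured above background by 1 of its 2 probes. Probe ILMN_1228535 read 183.7, 120.1 and 173.2 intensity units in Rb cKO, against 101.9, 80.4 and 96.8 in Control. Its normalised log2 values were 7.53, 6.44 and 7.02 in Rb cKO, against 6.33, 6.00 and 5.67 in Control. All Rb cKO arrays lay above all Control arrays, by 0.12 log2 units at the closest. The means were 7.0 ± 0.55 in Rb cKO and 6.00 ± 0.33 in Control (SD, n = 3 each), and the difference of 1.00 ± 0.36 (SE) was 0.57 ± 0.34 without both arrays that stood apart and 0.65 ± 0.24 with normexp at offset 50. The other probe, ILMN_2661299, read 39.9 to 45.9 intensity units in Rb cKO and 35.7 to 39.7 in Control and was not above background on any array. Of the 4 Pmp22 windows in RefSeq, the first had 3 CpG pairs and the remaining ones had 18 to 30. The first held a CCAAT match, which 37.4% of all windows have, and the second a CCAAT match and 3 Sp1 matches. The third held none of the motifs and the fourth 3 Sp1 matches, and in both sets of Sp1 matches 2 overlap. None of the 4 windows held the AP-1, E2F or TATA letters.

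The bead data of each array show how precisely a single value was measured. Each array read a family probe on 27 to 54 beads. For Emp1 the standard error over beads was 2.27% to 6.19% of the intensity, and for Pmp22 it was 3.5% to 8.44% on the detected probe. The differences between arrays of 1 group were far larger than this bead error for Emp1 in Rb cKO, where 557.5 ± 12.6 and 277.4 ± 8.58 (SE over beads) were read on replicates 1 and 2. For Emp2 the bead errors of 69.9 ± 3.19 on Rb cKO replicate 2 and 72.1 ± 3.70 on Control replicate 3 overlapped.

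**Figure D2:**
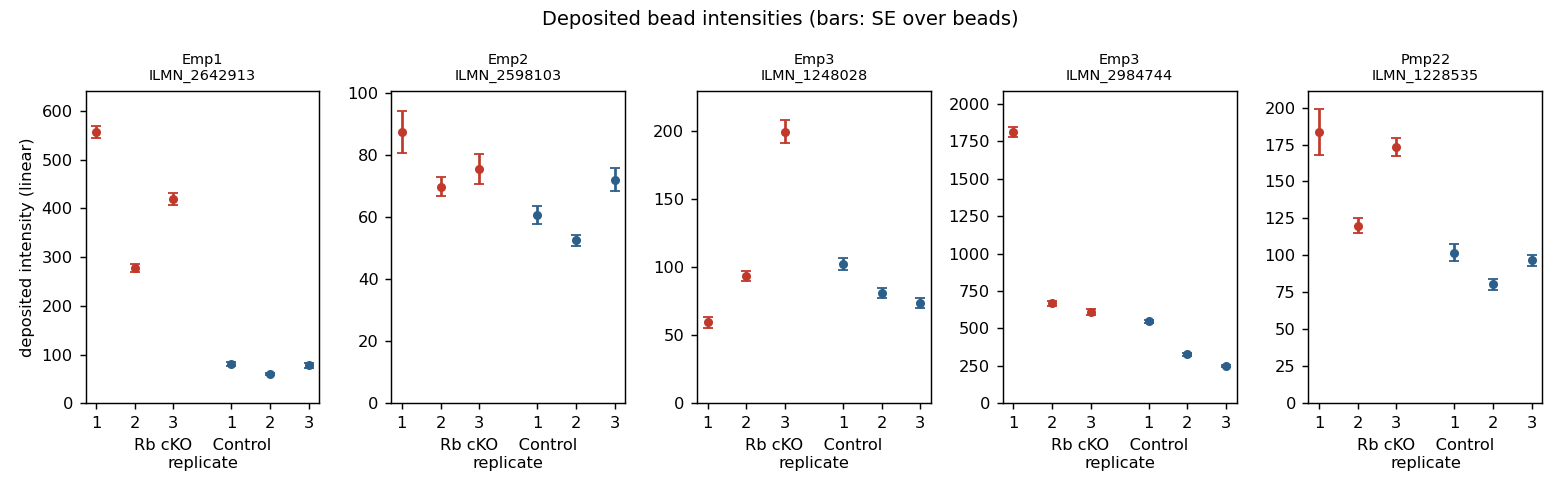
Deposited linear intensity (vertical axis, from 0) of the 5 probes detected on at least 3 arrays, with Rb cKO replicates 1 to 3 in red at left and Control replicates in blue at right; bars are the standard error over beads. The Emp1 arrays form separate bands (277.4 to 557.5 in Rb cKO and 59.9 to 80.9 in Control), while the dimmer Emp3 probe has 1 high array (199.2, Rb cKO replicate 3).

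Over the family, 5 of the 6 probes passed the filter on dim probes and entered the fit. The 5 differences were all above 0 and their median was 1.00, where the median over all tested probes was 0.08 and 57.0% lay above 0. Of the 5, 1 was called higher (Emp1), where 0.142% of all tested probes were. On 4 of the 5, all Rb cKO arrays exceeded all Control arrays, which held for 8.04% of tested probes (the reverse for 4.01%). These counts come from the contrast that led to the family and are not read further. Rb cKO replicate 1 was the highest array on the same 4 probes, as it was on 35.9% of all tested probes.

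Emp1 had its nearest company outside the family. Profiles were compared as the root-mean-square distance over the 6 arrays, after each probe was centred on its own mean, and the median distance of a tested probe from Emp1 was 1.58 log2 units. Within the family the bright Emp3 probe was nearest at 0.96, with Pmp22 at 1.04, Emp2 at 1.25 and the dim Emp3 probe at 1.69. Of all tested probes, 1.72% lay nearer to Emp1 than the bright Emp3 probe did, 2.36% nearer than Pmp22 and 7.79% nearer than Emp2, whereas 66.6% lay nearer than the dim Emp3 probe. This distance contains the group difference itself, so genes with a difference of the same size are favoured and their p-values would restate the choice.

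The 8 named genes with the nearest profiles all lay within 0.29 log2 units of Emp1. Cd63, a tetraspanin of late endosomes and exosomes, was closest at 0.14, with 12.07, 11.02 and 11.40 in Rb cKO against 8.97, 8.45 and 8.28 in Control on the log2 scale. All 8 genes but Rin2 shared with Emp1 the order of the Rb cKO arrays, with replicate 1 highest and replicate 2 lowest. So did Emp2 and the detected Pmp22 probe, which were not chosen by distance. For the 8 genes this order is part of the distance that chose them, so sharing it is no separate result. The share of all tested probes with this order was not computed. The MHC class Ib gene H2-T23 followed at 0.23, the tight junction gene Cldn4 at 0.24 and the transglutaminase gene Tgm2 at 0.25. On the Control arrays neither H2-T23 nor Cldn4 exceeded background, which makes their folds lower bounds (at least 8.94-fold and at least 6.69-fold higher in Rb cKO). Rin2, a Rab5 exchange factor gene, lay at 0.26 and was above background on only 1 of the 3 Control arrays. The stress-induced transcription factor gene Atf3 lay at 0.28. Gch1, for the entry enzyme of tetrahydrobiopterin synthesis, and the chemokine gene Cxcl2 both lay at 0.29. Cxcl2, too, stayed below background in Control and was at least 4.23-fold higher in Rb cKO.

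**Figure D3:**
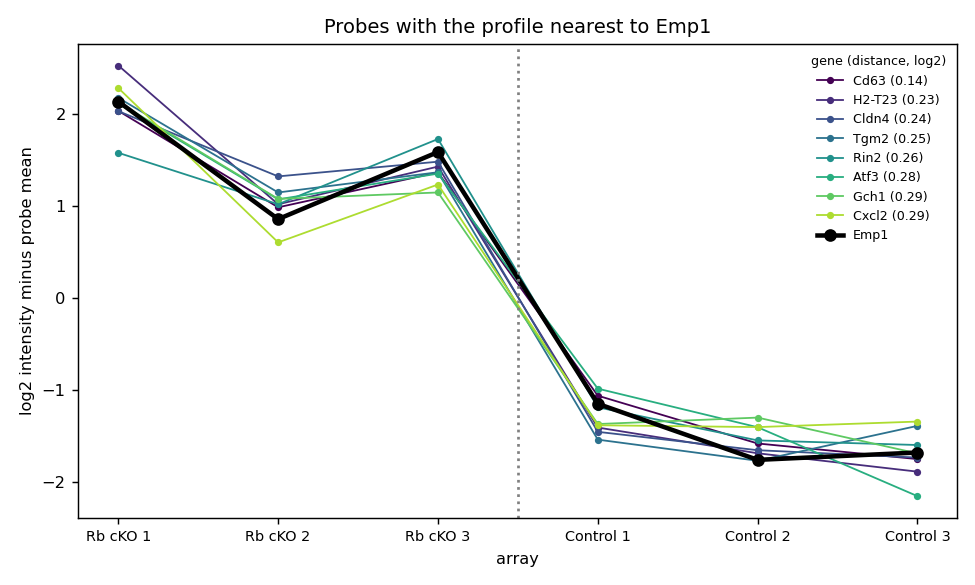
Log2 intensity minus each probe's mean (vertical axis) on the 6 arrays (horizontal axis, Rb cKO left of the dotted line and Control right), for Emp1 in black and the 8 named genes with the nearest profiles, with their distance in the legend. Lines only join the points of a probe. Replicate 1 is the highest array for Emp1 and for all neighbours but Rin2, which their choice by distance favoured. Cd63 at 0.14 is the nearest.

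A list of 21 more distant tetraspan relatives, which leaves out the claudins proper and thus Cldn4, held 9 tested genes, and limma called 0 of these 9 in either direction. Over all genes by their brightest probe, 0.195% were called higher and 0% lower. None of the 9 had an unadjusted p under 0.05, where 5.96% of all genes were higher and 1.81% lower by that measure. Their median difference was 0.05, with a range of -0.41 to 0.50, beside 0.12 over all 12277 genes. The list's smallest unadjusted p (0.131 in limma) belonged to Tmem47, a claudin-like junction protein gene. It was not above background in Control, so it passed the filter on dim probes through the Rb cKO arrays alone. Its mean was at least 1.19-fold higher in Rb cKO, but the groups overlapped (4.95 on Rb cKO replicate 3, 4.99 on Control replicate 2). Gsg1, a germ cell gene, differed by 0.36, with its other probes at -0.48 and 0.58. Cldnd2, a claudin domain gene, differed by 0.50 and Tmem178 by -0.41. Lhfp differed by -0.22. Among those not above background on any array were the lens gene Lim2, the p53 target Perp and the lymphocyte gene Nkg7.

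Genes of reported partners and of signalling tied to the family also had no member past the threshold. Of 21 listed genes 13 were tested and limma called 0 (unadjusted p under 0.05 for 2 higher and 2 lower, against 5.96% and 1.81% of all genes), with a median of 0.18 beside 0.12 over all genes. The receptor gene Tgfbr2, which has been linked to EMP3 in human tumour cells, had 7.02, 5.77 and 6.42 in Rb cKO against 5.09, 5.08 and 4.83 in Control on the log2 scale. Cav1, the main caveolin of caveolae, had 8.41, 7.15 and 7.90 in Rb cKO against 6.59, 6.39 and 6.30 in Control. Neither gene's groups overlapped, and the adjusted p was 0.369 for Tgfbr2 and 0.384 for Cav1 in limma. Cav1, detected on all arrays, differed by 1.39 ± 0.36 (SE), whereas Tgfbr2 was above background on 1 of the 3 Control arrays, so its fitted 1.40 ± 0.36 is set against a mostly undetected group.

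The tight junction gene Ocln lay the other way, with 7.33, 7.33 and 7.02 in Rb cKO against 8.03, 8.20 and 8.49 in Control (adjusted p 0.385 in limma). Itga6, for the laminin-binding integrin chain with which PMP22 has been found in complex, differed by -1.38 ± 0.47 (SE), and its other probe by -0.88. Itgb5, an integrin chain that pairs with alpha v, differed by -0.67 ± 0.36. Over the list, all Rb cKO arrays lay above Control for 2 genes and below for 2, against 9.56% and 4.33% of all genes. Its median was -0.11 without both arrays that stood apart.

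Pmp22 is a myelin gene in Schwann cells, and other myelin genes differed in both directions here. Of 12 listed genes 6 were tested, limma called 0 (unadjusted p under 0.05 for 0 higher and 2 lower, against 5.96% and 1.81% of all genes), and the median was 0.34. It was 0.03 without Rb cKO replicate 1, 0.14 without Control replicate 3 and 0.61 without Rb cKO replicate 3. Mbp, for myelin basic protein, had 8.80, 8.85 and 8.76 in Rb cKO against 9.63, 10.11 and 9.49 in Control, while its other probes differed by -0.70 and -0.04. Ncmap differed by -0.86. Egr2, a zinc finger factor that drives Pmp22 in Schwann cells, had 9.78, 9.11 and 9.48 in Rb cKO against 7.44, 8.73 and 9.06 in Control, a difference of 1.05 ± 0.45 (SE), with Control replicate 1 the lowest array. The nerve growth factor receptor gene Ngfr differed by 0.85 and Mag by 0.43. Without both arrays that stood apart the list median was -0.17.

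As Gas3, Pmp22 also belongs to the genes named for growth arrest. Of 11 listed growth arrest and DNA damage genes 9 were tested, limma called 0 (unadjusted p under 0.05 for 1 higher and 1 lower, against 5.96% and 1.81% of all genes), and the median of 0.10 lay near the 0.12 of all genes. Gadd45a, a stress gene of growth arrest, had 9.50, 8.98 and 9.05 in Rb cKO against 8.41, 8.55 and 8.33 in Control, a difference of 0.75 ± 0.26 (SE). Gas6, the ligand of TAM receptors, had 10.75, 12.53 and 12.18 in Rb cKO against 12.86, 13.21 and 12.76 in Control, a difference of -1.13 ± 0.47 (SE). Rb cKO replicate 1 was the lowest array for it. Gadd45b, Ddit3 and Gas2l3 differed by 0.55, 0.47 and 0.15.

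**Figure D4:**
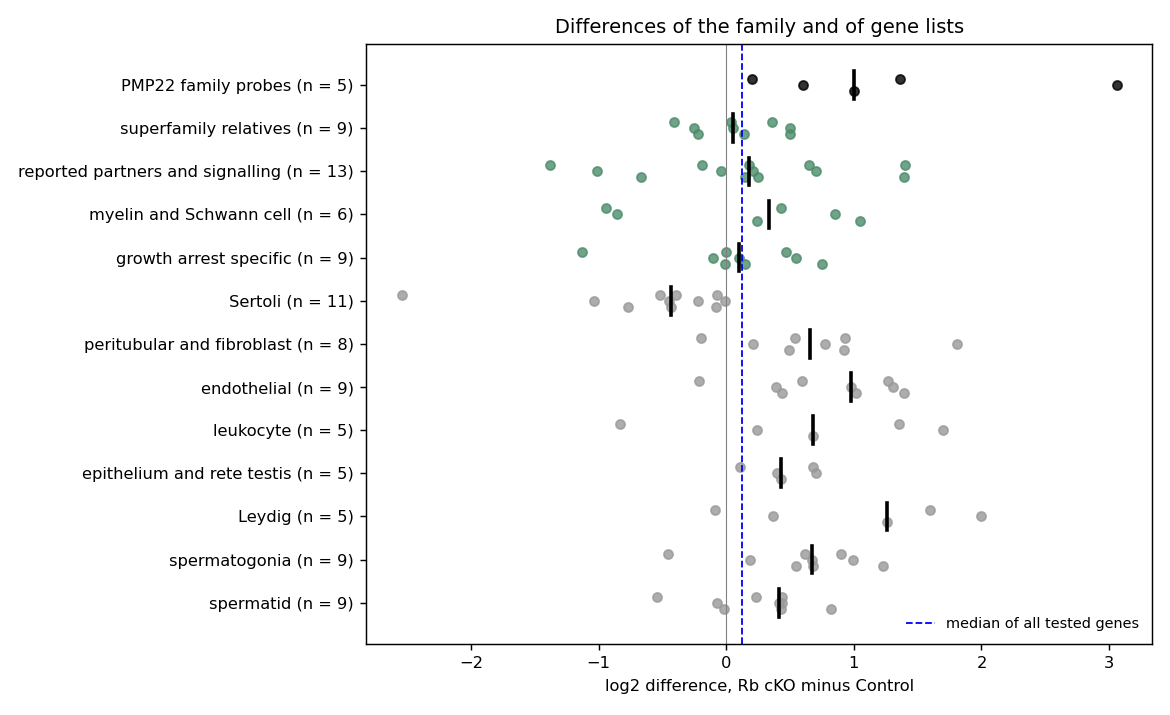
Log2 difference, Rb cKO minus Control (horizontal axis), for each tested family probe (top row, black), each tested gene of 4 related lists (green) and of marker lists (grey), with a black bar at the median of a row. The blue dashed line is the median of all tested genes, 0.12. For 4 genes below background on all Control arrays (Tmem47, Col3a1, Star and Ret) the point is the fitted value, not a measured fold. Emp1 at 3.06 lies outside the range of every list shown, which its choice by this same difference favoured. The Sertoli list is the only one with all points below 0.

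Of 50 tested markers of other testis cells, 42 had a positive difference, as did 61.3% of all genes. Of these, 3 (Star, Ret and Col3a1) passed the filter on dim probes through the Rb cKO arrays alone, which fixed their sign, and 39 of the remaining 47 were positive. Limma called 0 of the 50, and an unadjusted p under 0.05 was reached by 14 higher and 1 lower, against 5.96% and 1.81% of all genes. The sums below are on the linear scale, so the brightest markers of a list weigh most in them. Summed normalised intensity over the brightest probe of each endothelial marker was 860 to 1738 in Rb cKO and 514 to 832 in Control, and 8 of 9 tested markers had a positive difference (highest 1.39, for Emcn, which was detected on 1 of 3 Control arrays), with Kdr not above background on any array. Peritubular and fibroblast markers summed to 4283 to 11417 in Rb cKO and 2616 to 3254 in Control, with 7 of 8 positive. The highest difference, 1.81, was that of Acta2, the brightest tested one, whose 2 other tested probes differed by 0.18 and 1.90. Tagln, Cnn1 and Col1a2 of that list were not above background. Leydig markers summed to 2346 to 8637 in Rb cKO and 1215 to 3003 in Control, with 4 of 5 positive and Hsd3b1 not above background. Insl3, the brightest tested Leydig marker, differed by 1.6. Star, below background on all Control arrays, was at least 3.11-fold higher in Rb cKO.

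Epithelial and rete testis markers summed to 637 to 799 in Rb cKO and 352 to 629 in Control, with 5 of 5 positive (highest 0.70), and Epcam, Krt19 and Pax8 were not above background. Leukocyte markers summed to less in Rb cKO (3346 to 4688) than in Control (5175 to 6593), yet 4 of 5 tested ones were positive (highest 1.70). The exception, Mrc1, was the brightest tested one and differed by -0.83, so it weighs most in the sum. Ptprc, Itgam and Tyrobp were not above background. Spermatogonia markers summed to 5312 to 6377 in Rb cKO and 4374 to 5032 in Control, with 8 of 9 positive, while Zbtb16, Nanos2 and Nanos3 were not above background. Spermatid markers summed to 91807 to 122783 in Rb cKO and 85386 to 112593 in Control, with 6 of 9 positive and every marker with a probe above background on some array. All these signs are those of the brightest tested probe. Other tested probes differed by -1.15 for Ddx4, by -1.99 and 0.47 for Akap4, and by -0.19 and 0.20 for Muc1, all counted as positive. Those of the remaining markers kept the counted sign. The part of any of these cells in the family's values was not tested.

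Markers of the labelled cell type were detected, as were those of other testis cells. Of 16 listed Sertoli genes 12 had a probe, and all 12 were detected on some array. Their summed intensity was 69083 to 72617 in Rb cKO and 72596 to 80114 in Control. Aard, the brightest at 14.86 to 14.88 log2 units on all arrays, weighs most in it. The sum therefore says little about the dimmer markers of the list. Spermatid markers had higher sums in both groups, and sums over different probes do not compare amounts of cells. By brightest probe, all 11 tested Sertoli markers had a negative difference, as did 38.7% of all genes, and their median was -0.43 beside 0.12. Limma called 0 of them, and 1 was lower by an unadjusted p under 0.05, against 1.81% of all genes. Of their other tested probes, that of Gata1 differed by 0.04 and the rest were negative. The iron carrier gene Trf was at 4.57, 7.77 and 9.97 in Rb cKO against 9.64, 9.19 and 11.10 in Control. On Rb cKO replicate 1, far below the other arrays, it was not above background. Sox9, whose reporter was used for sorting, was at 11.82, 11.75 and 11.48 in Rb cKO against 11.83, 12.20 and 12.20 in Control, a difference of -0.39, and its other tested probe differed by -1.22.

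**Figure D5:**
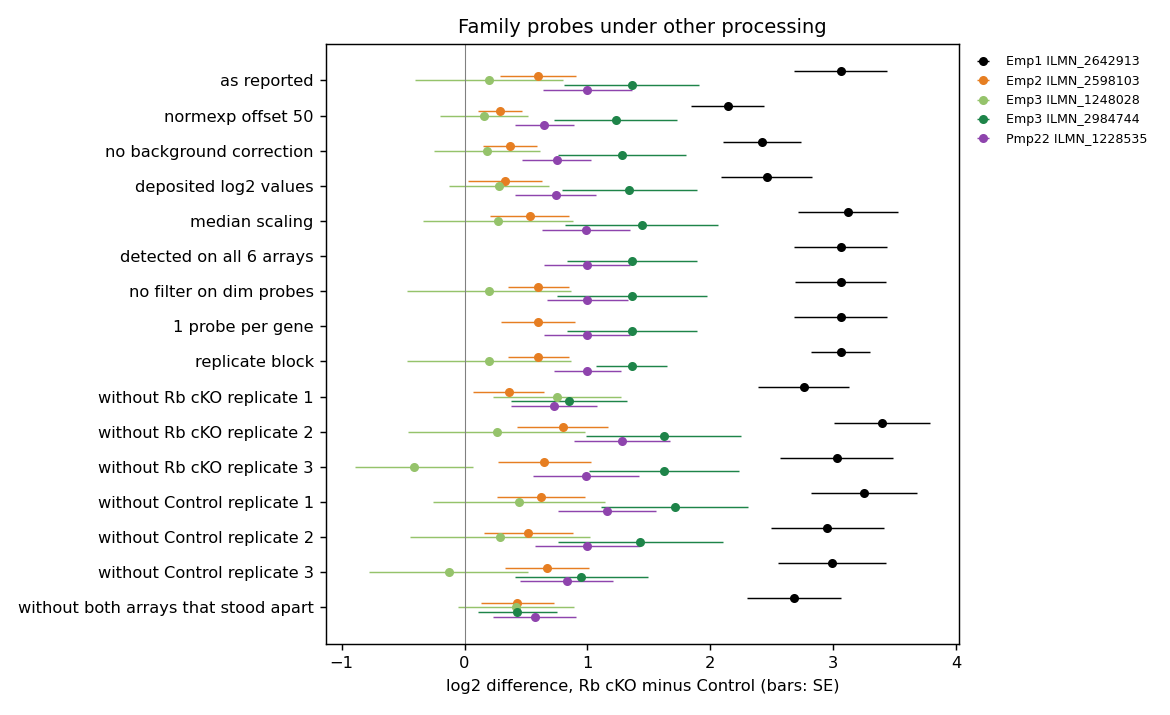
Log2 difference, Rb cKO minus Control (horizontal axis, bars are the SE), of the 5 tested family probes under the reported processing (top row) and 15 alternatives. Emp1 in black lies between 2.14 and 3.40 in all of them; the dim Emp3 probe in light green crosses 0, and the bright Emp3 probe drops to 0.43 without both arrays that stood apart.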

How the data were processed

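RNA of each sample was hybridised to its own Illumina bead array, and the submitters' processing notes name BeadStudio with no version. The deposited scanner tables give, per the file headers, a mean intensity per probe, its bead spread and bead number, and a detection score. A separate deposited table has log2 values. Comparison with the scanner tables showed each to be the log2 intensity relative to that array's upper quartile, centred on the probe's median across arrays. Matching on this formula tied all 45281 entries to a scanner probe (largest distance 0.0004, next candidate at least 0.0028 away). A single gene symbol was annotated for 34885 probes. Promoters came from RefSeq, build GRCm38.p6, and the array annotation names no build.

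Normalisation used neqc of limma 3.58.1 in R 4.3.3 (offset 16, background from the detection scores, quantile). The 21805 probes that scored over 0.95 on 3 or more of the 6 arrays were fitted with lmFit and eBayes, group being the sole term, and p-values were adjusted by Benjamini-Hochberg over all of them, with 0.05 as threshold. Every adjusted p is limma's. The fit was tested on simulated data with normal noise of the fit's moderated spread and no array effects (5 runs of the 3 against 3 comparison, 21805 probes, 200 changed): it called 55.2% of probes raised 4-fold and 92.2% of those raised 8-fold, and 6.43% of calls were unchanged probes. List genes are represented by their brightest tested probe. A fold marked "at least" sets the Rb cKO mean against, per Control array, the lowest signal of any detected probe or the probe's own if higher. Alternatives varied the background correction, normalisation, filter, probes per gene, replicate block and arrays used.

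Arrays with the same number in both groups deviated together from their group means (correlations 0.262, 0.410 and 0.473). Arrays of different numbers were not compared in this way, so these values do not establish a pairing. The fit reported here uses no pairing, and the replicate block is an alternative. The members, lists and motifs were chosen with earlier results of these data known. The genes named are the family, Rb1, the 5 of smallest p in each related list and the 8 nearest profiles. Sox9, Trf, Aard, Gata1, Emcn, Acta2, Mrc1, Insl3, Ddx4, Akap4, Muc1 and the genes named as below background were added after their values were seen. Precision is limited by the number of arrays.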

Additional observations from a re-analysis of the deposited data

How the results depend on the processing

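With 3 arrays a group, the number of probes called higher over the whole table, 31, depended on the processing. A normexp correction with offset 50 gave 9 and uncorrected intensities gave 13. The number was 1 when dim probes were kept, 56 with 1 probe per gene, 0 with the replicate block and 6 without both arrays that stood apart. Leaving out 1 array gave 0 to 15, and 0 for each Control array left out (2016, 860 and 615 higher and 606, 198 and 259 lower by unadjusted p under 0.05 in limma, for Control replicates 1 to 3). Other filters, 1 probe per gene and the replicate block reuse the reported normalised values, so they can change a probe's SE but not its difference. Of 72 recomputed differences of family probes, these repeats included, 70 kept their direction. The exceptions were those of the dim Emp3 probe without Rb cKO replicate 3 (-0.41) and without Control replicate 3 (-0.13), within a range of -0.41 to 0.75 when 1 array was left out. The median of the related tetraspan genes ran from -0.05 (without Rb cKO replicate 2) to 0.17 with 1 array left out, and was -0.04 without both arrays that stood apart. That of the partner list ran from -0.06 (without Control replicate 1) to 0.47, with -0.04 without Control replicate 3 and -0.11 without both arrays. The myelin list ran from 0.03 (without Rb cKO replicate 1) to 0.61 (without Rb cKO replicate 3) and was -0.17 without both arrays. The growth arrest list ran from 0.02 (without Rb cKO replicate 2 or Control replicate 3) to 0.38 (without Control replicate 2), with 0.05 without Control replicate 1, 0.26 without Rb cKO replicate 1 or with median scaling, and -0.01 without both arrays. The causes were not tested. The stricter filter left the Emp2 and dim Emp3 probes without a value, and 1 probe per gene left out the dim Emp3 probe. Signals near background limit Emp2, dim Emp3 and the Control level of Emp1.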
